A study of Mus musculus with 59 samples.

Results

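The proteasome genes of the mouse were followed in prefrontal cortex RNA. Protein-coding genes whose symbols begin with Psma, Psmb, Psmc or Psmd and a number were taken, which gave 40 of the 51456 Ensembl identifiers measured. Of these, 19 code for the core (Psma1 to Psma8 and Psmb1 to Psmb11) and 20 for the cap (Psmc1 to Psmc6, Psmd1 to Psmd14). The last, Psmc3ip, matches by its letters only, since its product works in meiotic recombination, and it is kept apart. Genes with a mean under 10 over all libraries were listed and not tested, which left 17 core genes, the 20 cap genes and Psmc3ip. Psma8, known from the testis, had a mean of 9.45, and Psmb11, known from the thymus, a mean of 6.35.

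All mice were C57BL/6J. HT mice were heterozygous at Ank2, the gene of the membrane adaptor ankyrin-B, and WT mice were wild type. The Ank2 allele and the drug doses are not given in the sources used here. The pups received fluoxetine, a serotonin reuptake inhibitor, lithium, a mood stabilizer, or vehicle from postnatal day 3 to day 24 while they were nursed, the drug reaching them in the mother's milk, and tissue was taken on day 25. There were 10 libraries each of HT fluoxetine, HT lithium, WT lithium, HT vehicle and WT vehicle, with 5 females and 5 males, and 9 of WT fluoxetine, with 5 females and 4 males. Each library is labelled as a separate replicate. Litters are not labelled, and pups of 1 litter share the mother that carried the drug, so the p-values measure the spread between these pups.

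The proteasome is the protease that breaks down ubiquitin-tagged proteins. Its barrel-shaped core is a stack of rings of alpha subunits (Psma genes) and beta subunits (Psmb genes), and the beta subunits Psmb5, Psmb6 and Psmb7 carry the cutting sites. The cap binds tagged proteins, removes the ubiquitin and uses a ring of ATPases (Psmc genes) to unfold the protein and feed it into the core. In immune cells, or after interferon, the cutting subunits are replaced by Psmb8, Psmb9 and Psmb10, which makes the immunoproteasome. In neurons the proteasome is known for the turnover of synaptic proteins. Subunits are needed in fixed proportions, and their genes share transcription factors such as NFE2L1, a factor that raises proteasome genes when the protease is inhibited.

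Promoter sequences were looked at because the members share these regulators. RefSeq promoters (GRCm38.p6, 300 bases, of which 250 lie before the start) were at hand for 32 of the 39 core and cap genes, 15 of the core and 17 of the cap. Shown are 114 bases, from position -150 to -37 before the RefSeq start, of Psmb5, Psmb3 and Psma3, core genes that were lower with fluoxetine, and of Psmd2, a cap gene that was not called. They lie at chr14:54618032-54618145 on the minus strand, chr11:97703284-97703397 on the plus strand, chr12:70974473-70974586 on the plus strand and chr16:20651502-20651615 on the plus strand. Capitals mark TGACNNNGC, the core of the antioxidant response element that NFE2L1 and NFE2L2 bind, CCAAT, the box of NF-Y, and GGGCGG, the box of Sp factors.
Psmb5: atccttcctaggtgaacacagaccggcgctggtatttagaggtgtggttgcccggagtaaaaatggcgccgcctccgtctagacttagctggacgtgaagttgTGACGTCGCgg
Psmb3: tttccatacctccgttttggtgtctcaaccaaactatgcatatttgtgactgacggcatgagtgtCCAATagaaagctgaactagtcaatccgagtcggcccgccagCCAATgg
Psma3: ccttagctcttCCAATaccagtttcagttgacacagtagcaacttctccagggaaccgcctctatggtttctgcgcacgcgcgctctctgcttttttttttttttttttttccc
Psmd2: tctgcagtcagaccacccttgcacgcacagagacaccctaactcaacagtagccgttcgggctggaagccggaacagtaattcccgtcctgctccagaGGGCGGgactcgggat

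The match in Psmb5 starts at -47, those in Psmb3 at -85 and -43, that in Psma3 at -139 and that in Psmd2 at -52. On both strands of the whole 300 bases, TGACNNNGC was found in 15.6% of the 32 promoters (Psmb5, Psmb6, Psmc6, Psmd9 and Psmd12), against 14% of the 27025 genes in the table. CCAAT was in 40.6% of the members and 41.1% of all genes. GGGCGG was in 59.4% and 38.2%, and the ETS-type CGGAAG in 56.2% and 18.8%. The last 2 motifs were mostly in cap genes: GGGCGG in 6 of 15 core and 13 of 17 cap promoters, CGGAAG in 5 of 15 and 13 of 17. CCAAT stood in 8 of 15 core and 5 of 17 cap promoters. A match of letters is no evidence of binding, and no match says only that these letters are not in the window. There were 15 motifs in the search, each on both strands. The others, each in 6 or fewer members, included TATAAA, the E-box CACGTG, the heat shock motif TTCNNGAA and the cAMP element TGACGTCA. They also held the AP-1 motif TGANTCA with its special case TGACTCA and the longer ETS motif CCGGAAGT (which holds CGGAAG). The last were the NRF1-type GCATGCGC and the longer motifs of ZNF143, ZBTB33 and NRF1. Shares in members and in all genes were 12.5% and 15.7% for TATAAA, 9.38% and 8.09% for CACGTG, and 3.12% and 9.6% for TTCNNGAA. For TGACGTCA they were 0% and 2.03%, for TGANTCA 6.25% and 8.97%, and for TGACTCA 3.12% and 5.95%. CCGGAAGT had 18.8% and 4.31%, and GCATGCGC 6.25% and 3.05%. The longer motifs of ZNF143, ZBTB33 and NRF1 had 6.25% and 1.1%, 3.12% and 0.525%, and 18.8% and 5.19%.

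The values are estimated counts after the authors' normalization. A library's values summed to about 30300000 to 33800000, and its estimated depth was 25900000 to 36500000 reads. Ank2 was at 17431 to 22813 in HT fluoxetine, 18076 to 21947 in HT lithium and 18539 to 21059 in HT vehicle libraries. In WT fluoxetine, WT lithium and WT vehicle libraries it was at 29585 to 35821, 25376 to 29171 and 23284 to 30855, so no HT library reached a WT one. The summed level of 7 neuron markers was 157346 to 233981. In 4 libraries the genes spread most around their group means, with a standard deviation (SD) on the log2 scale of 0.421 in HT fluoxetine female replicate 2, 0.246 and 0.23 in WT fluoxetine male replicates 1 and 4, and 0.239 in HT vehicle female replicate 1, against 0.206 at most in the others. Choroid plexus markers summed to 77925 in the highest HT fluoxetine library, with a group median of 166. Counts of called core and cap genes for the drug and genotype comparisons are also given without these 4 libraries. The splits by sex and the lists of other genes were not refitted without them.

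Most proteasome genes were abundant. Per kilobase of transcript, the mean normalized value in WT vehicle libraries was 1580 (Psmb2) to 2840 (Psmb7) for the 7 constitutive beta genes, 1110 (Psmc6) to 2820 (Psmc5) for the 6 ATPases and 825 (Psmd11) to 2200 (Psmd2) for the 11 other cap subunits. The immunoproteasome genes were far lower. Psmb8 reached, per kilobase, 1.5 ± 0.359% of its constitutive counterpart Psmb5 in WT vehicle libraries, Psmb9 0.82 ± 0.171% of Psmb6, and Psmb10 14.8 ± 1.59% of Psmb7 (SD, n = 10). The cap assembly chaperones Psmd5, Psmd9 and Psmd10 were at 228 (Psmd10) to 297 (Psmd5) per kilobase.

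Core genes were lower in mice given fluoxetine than in mice given vehicle, in both genotypes. In HT, 13 of 17 core genes fell, and in WT 11 of 17. All 17 core changes were below 0 in each genotype (13 of them in HT and 14 in WT after the correction for length and GC content described below), and no proteasome gene rose. The cap changed less: 4 of 20 genes fell in HT and 4 of 20 in WT. Among all genes tested, 7.38% fell and 6.63% rose with fluoxetine in HT, and 7.78% fell and 7% rose in WT (limma, Benjamini-Hochberg adjusted p under 0.05). Log2 changes had a median of -0.17 for the core and -0.03 for the cap in HT, and of -0.19 and -0.05 in WT, with a median of 0 over all genes. Of the core genes that fell, 10 were the same in both genotypes, which is 10 of 13 in HT and 10 of 11 in WT. Without the 4 libraries that spread most, 16 core and 6 cap genes fell in HT, and 10 and 5 in WT. Of all 16919 genes, 3164 were then called in either direction in HT and 2002 in WT. With all libraries 1248 genes fell and 1122 rose in HT, and 1316 and 1184 in WT. In bulk tissue, fewer cells of a type and less RNA per cell cannot be told apart.

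**Figure D1:**
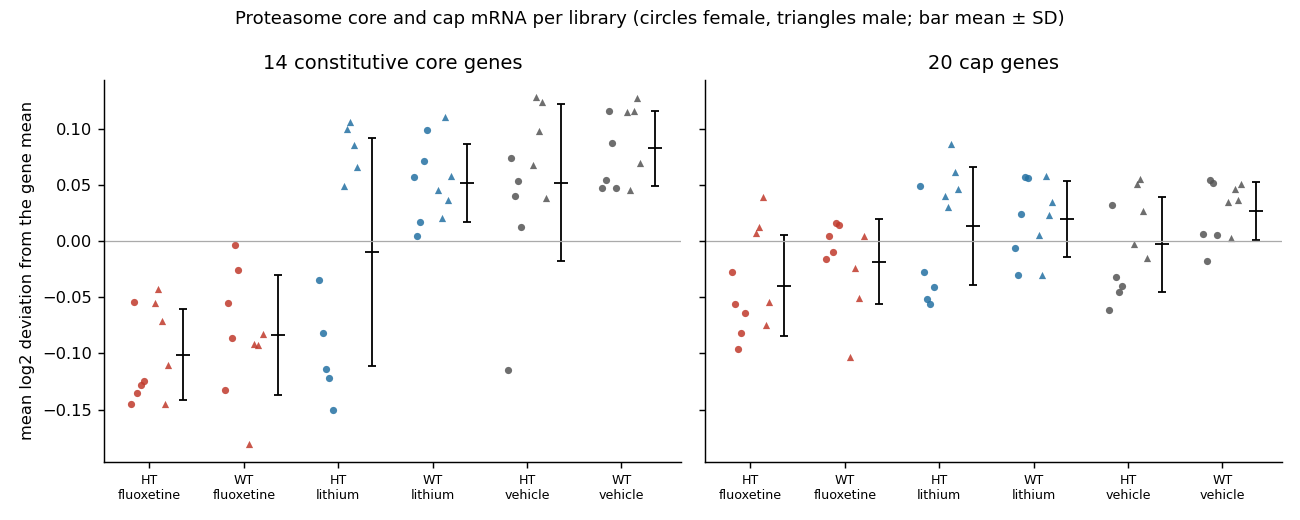
Mean log2 deviation from each gene's mean over all libraries, for the 14 constitutive core genes (left) and the 20 cap genes (right), 1 point per library by genotype and drug, with the mean and SD beside each group. Core values ran from -0.145 to -0.043 in HT fluoxetine libraries and from -0.181 to -0.004 in WT fluoxetine libraries, and HT lithium libraries fall into females below 0 and males above 0.

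The 14 constitutive core genes give a summary of each library, the mean of their log2 deviations from the gene means. It was -0.145 to -0.043 in HT fluoxetine libraries (median -0.117), against -0.115 to 0.128 in HT vehicle (median 0.06). In WT fluoxetine it was -0.181 to -0.004 (median -0.086), against 0.045 to 0.127 in WT vehicle (median 0.078). No WT fluoxetine library reached a WT vehicle library, while in HT the lowest vehicle library, female replicate 1, lay among the fluoxetine libraries. The same mean over the 20 cap genes was -0.096 to 0.039 in HT fluoxetine and -0.061 to 0.055 in HT vehicle, and -0.103 to 0.016 in WT fluoxetine and -0.018 to 0.054 in WT vehicle, so the cap overlapped in both genotypes.

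In the alpha ring, which gates the core, 5 of 7 genes fell in each genotype, Psma3, Psma5, Psma6 and Psma7 in both. Psma3 (chromosome 12, 70974621 to 70996347) was at 1903 to 2338 in HT fluoxetine libraries (median 2200), against 1964 to 2871 in HT vehicle (median 2607). It was at 1985 to 2485 in WT fluoxetine (median 2194), against 2349 to 2674 in WT vehicle (median 2539). All fluoxetine libraries lay below the vehicle median, and 8 of 9 in WT, but 1 of 10 in HT, lay below every vehicle library. The log2 change was -0.20 ± 0.04 (standard error, SE; adjusted p = 3.3e-04) in HT and -0.21 ± 0.04 (adjusted p = 2.1e-04) in WT.

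Psma6 (chromosome 12, 55384222 to 55418454) separated the groups in more libraries. It was at 1692 to 2011 in HT fluoxetine, against 1955 to 2184 in HT vehicle, and at 1782 to 2021 in WT fluoxetine, against 2011 to 2238 in WT vehicle. In HT 9 of 10 and in WT 8 of 9 fluoxetine libraries lay below every vehicle library. Its log2 change was -0.17 ± 0.03 in both genotypes (adjusted p = 3.5e-05 in HT and 7.3e-05 in WT). Psma5 also changed alike, by -0.18 ± 0.03 in both (adjusted p = 6.9e-05 and 1.2e-04), and Psma7 by -0.12 ± 0.03 in both (adjusted p = 0.0016 and 0.0015). Psma2 was called in HT only (-0.12, adjusted p = 0.013, against -0.08 and 0.15 in WT) and Psma1 in WT only (-0.10, adjusted p = 0.027, against -0.08 and 0.084 in HT). The test of the difference between genotypes, given below, called neither. The WT call of Psma1 was lost in 5 of the 19 fits that leave out 1 WT library. Psma4 had -0.09 in HT (adjusted p = 0.052) and -0.08 in WT (adjusted p = 0.074).

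In the beta ring 6 of 7 constitutive genes fell in each genotype, the same 6. Psmb7 (chromosome 2, 38588036 to 38644087), the trypsin-like site, had the smallest p of the proteasome genes in both. It was at 2581 to 2989 in HT fluoxetine libraries (median 2611), against 2699 to 3524 in HT vehicle (median 3264). In WT it was at 2427 to 2981 with fluoxetine (median 2857), against 3033 to 3461 with vehicle (median 3319), so the WT groups did not overlap. The log2 change was -0.25 ± 0.03 in HT (adjusted p = 2e-08) and -0.24 ± 0.03 in WT (adjusted p = 7.4e-08), which is 0.843 and 0.846 of the vehicle level.

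Psmb5 (chromosome 14, 54614119 to 54618022), whose promoter is printed above, is the chymotrypsin-like site and the target of clinical proteasome inhibitors. It was at 1586 to 1919 in HT fluoxetine libraries (median 1682), against 1676 to 2060 in HT vehicle (median 1974), and at 1509 to 1901 in WT fluoxetine (median 1676), against 1888 to 2125 in WT vehicle (median 2083). All but 1 library of each vehicle group exceeded every fluoxetine library (9 of 10 in HT and 9 of 10 in WT). The change was -0.20 ± 0.04 in HT (adjusted p = 1e-04) and -0.28 ± 0.04 in WT (adjusted p = 3.2e-07). Psmb6, the caspase-like site, changed by -0.09 ± 0.03 in HT (adjusted p = 0.015) and by -0.17 ± 0.03 in WT (adjusted p = 1.1e-05).

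Psmb3 (chromosome 11, 97703399 to 97713500), a beta subunit with no cutting site, was at 1247 to 1413 in HT fluoxetine libraries (median 1327), against 1360 to 1728 in HT vehicle (median 1604). It was at 1161 to 1402 in WT fluoxetine (median 1273), against 1442 to 1622 in WT vehicle (median 1582). The WT groups did not overlap, and in HT 9 of 10 vehicle libraries lay above every fluoxetine library. It changed by -0.27 ± 0.03 in HT (adjusted p = 1.5e-07) and by -0.27 ± 0.04 in WT (adjusted p = 1.8e-07). Psmb1, also without a cutting site, changed by -0.15 ± 0.02 and -0.19 ± 0.03, and Psmb4 by -0.17 ± 0.03 and -0.20 ± 0.03 in HT and WT. Psmb2 was not called: -0.05 ± 0.03 in HT (adjusted p = 0.23) and -0.07 ± 0.03 in WT (adjusted p = 0.14). In WT, 3 core genes (Psmb1, Psmb3 and Psmb7) and 1 cap gene (Psmd7) had every fluoxetine library below every vehicle library, as did 0.975% of all genes tested. In HT no proteasome gene did, and 0.171% of all genes.

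**Figure D2:**
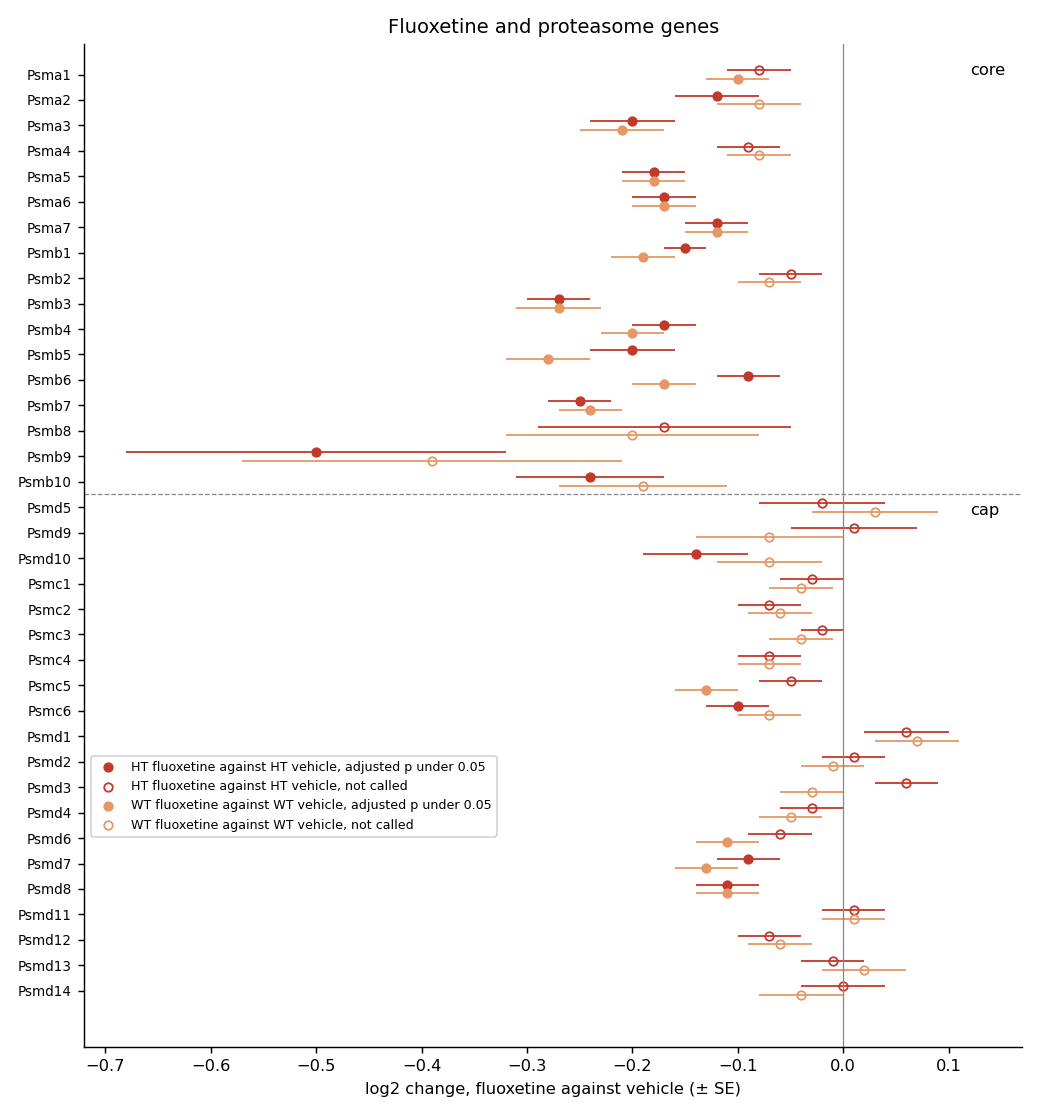
Log2 change with fluoxetine against vehicle (x axis, ± SE) of the 17 tested core genes above the dashed line and the 20 cap genes below it, HT above WT in each row. Filled points had an adjusted p under 0.05; core changes lie between -0.50 and -0.05, and cap changes between -0.14 and 0.07.

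The immunoproteasome genes were low and their spread was wide. Psmb10 (chromosome 8, 105935735 to 105938444) was at 350 to 623 in HT fluoxetine libraries (median 516), against 503 to 678 in HT vehicle (median 596), and changed by -0.24 ± 0.07 (adjusted p = 0.017). In WT it was at 406 to 598 (median 469) with fluoxetine, against 470 to 670 (median 550) with vehicle, a change of -0.19 ± 0.08 (adjusted p = 0.079). Psmb9, at 12 to 30 in HT fluoxetine and 18 to 46 in HT vehicle, changed by -0.50 ± 0.18 (adjusted p = 0.048), a call lost in 15 of the 20 fits that leave out 1 HT library. In WT its change was -0.39 ± 0.18 (adjusted p = 0.16). Psmb8 had -0.17 ± 0.12 in HT (adjusted p = 0.35) and -0.20 ± 0.12 in WT (adjusted p = 0.29). The level of Psmb10 relative to Psmb7, per kilobase, was 16.6 ± 2.52% in HT fluoxetine and 16.4 ± 1.49% in HT vehicle libraries (SD, n = 10 each). In WT it was 15.4 ± 1.89% with fluoxetine (n = 9) and 14.8 ± 1.59% with vehicle (n = 10), differences within the spread of the libraries.

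In the cap, 1 of 6 ATPases fell in each genotype, Psmc6 in HT and Psmc5 in WT. Psmc5 was at 2758 to 3608 in WT fluoxetine (median 3461), against 3580 to 3825 in WT vehicle (median 3723), and changed by -0.13 ± 0.03 (adjusted p = 0.0029), and by -0.05 ± 0.03 in HT (adjusted p = 0.35). Psmc6 changed by -0.10 ± 0.03 in HT (adjusted p = 0.023) and by -0.07 ± 0.03 in WT (adjusted p = 0.15). Its HT call was lost in 2 of the 20 fits that leave out 1 HT library. Psmc1 and Psmc3 had between -0.04 and -0.02 in both genotypes.

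Of the 11 other cap subunits, Psmd7 and Psmd8 fell in both genotypes and Psmd6 in WT. Psmd7, the partner of the deubiquitinating subunit Psmd14, was at 2314 to 2634 in HT fluoxetine (median 2511), against 2372 to 2951 in HT vehicle (median 2599). It was at 2272 to 2548 in WT fluoxetine (median 2512), against 2575 to 2833 in WT vehicle (median 2701), with no overlap. The changes were -0.09 ± 0.03 (adjusted p = 0.024) in HT and -0.13 ± 0.03 (adjusted p = 8.8e-04) in WT. The HT call of Psmd7 was lost in 5 of the 20 fits that leave out 1 HT library. Without 1 WT library, the call of Psmd6 was lost in 1 of 19 fits and that of Psmd7 in 0. Psmd8, a lid subunit, changed by -0.11 ± 0.03 in both (adjusted p = 0.0033 and 0.0024). Psmd14 itself had 0.00 ± 0.04 in HT and -0.04 ± 0.04 in WT.

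The scaffolds Psmd1 and Psmd2 and the ubiquitin receptor Psmd4 were not called. Psmd2 (chromosome 16, 20651652 to 20663414), whose promoter is printed above, was at 5925 to 6974 in HT fluoxetine (median 6337), against 6115 to 6598 in HT vehicle (median 6284). In WT it was at 5524 to 7028 with fluoxetine (median 6649), against 6187 to 6894 with vehicle (median 6510). The groups overlapped throughout, and the 95% confidence interval of its log2 change was -0.04 to 0.06 in HT and -0.06 to 0.05 in WT. Psmd1 had the highest cap change in both, 0.06 ± 0.04 (adjusted p = 0.25) and 0.07 ± 0.04 (adjusted p = 0.21). Of the assembly chaperones, Psmd10 fell in HT (-0.14 ± 0.05, adjusted p = 0.045), a call lost in 13 of the 20 fits that leave out 1 HT library. Psmd5 and Psmd9 were between -0.07 and 0.03 in both. Psmc3ip was at 29 to 55 in HT fluoxetine and 41 to 78 in HT vehicle (log2 change -0.24 ± 0.14, adjusted p = 0.25).

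**Figure D3:**
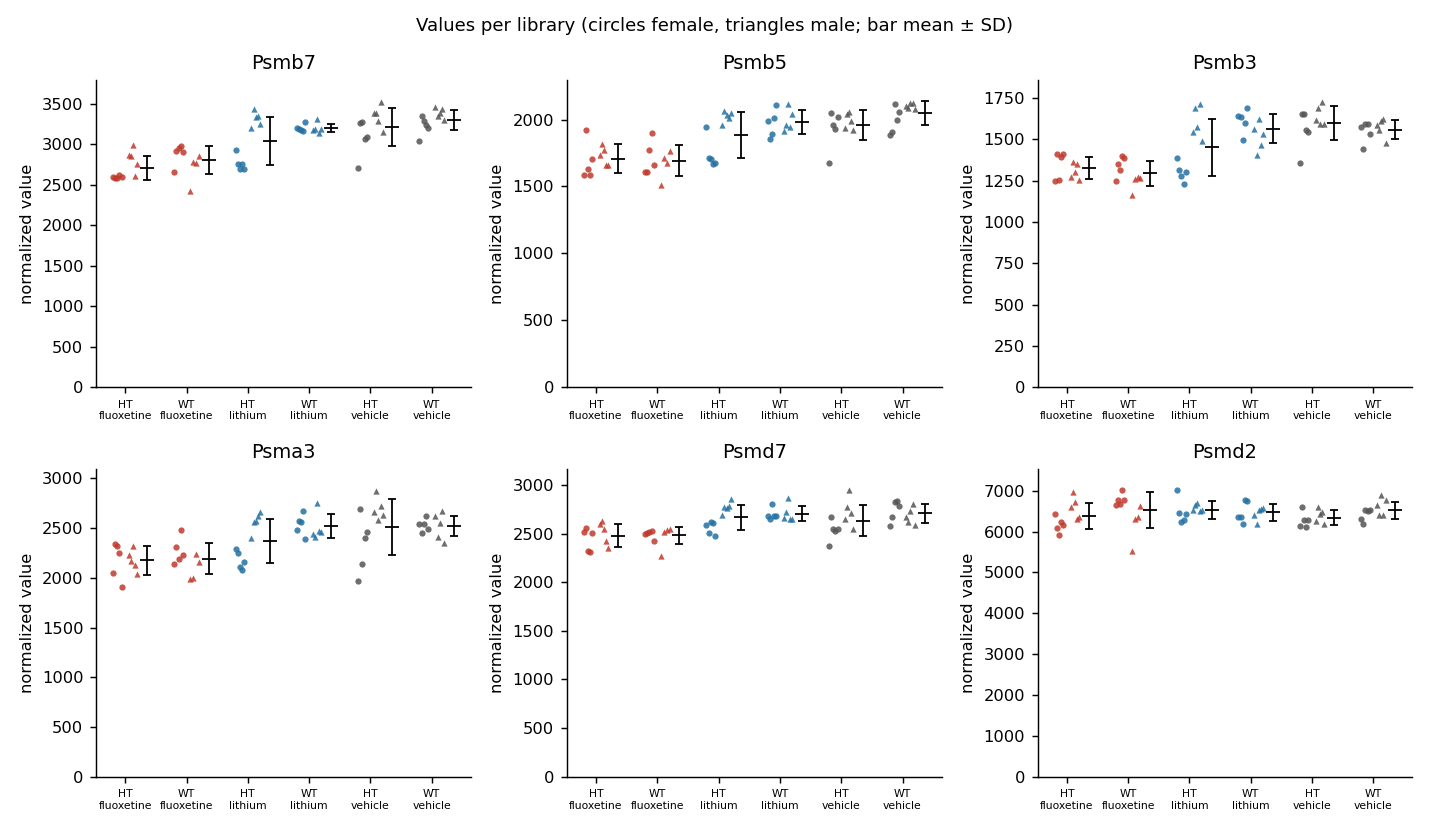
Normalized value per library of 4 core genes (Psmb7, Psmb5, Psmb3, Psma3) and 2 cap genes (Psmd7, Psmd2), with the mean and SD of each group; the y axes start at 0. The fluoxetine libraries lie low for the core genes, as do the HT lithium females for Psmb7 and Psmb3. For Psmd7 the fluoxetine libraries lie below every vehicle library in WT and overlap them in HT. For Psmd2 the fluoxetine and vehicle libraries overlap throughout.

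Within single sexes, 7 core genes fell with fluoxetine in HT females and 9 in HT males, where 4.43% and 2.39% of all genes fell. In WT females 7 and in WT males 10 core genes fell, with 3.98% and 3.32% of all genes. Psma5, Psmb1, Psmb3, Psmb4, Psmb5 and Psmb7 fell in all 4 combinations. In the cap, 1 gene fell in HT females, none in HT males and 2 each in WT females and males. Psmd1 rose in WT females (0.15, adjusted p = 0.046), the 1 rise in these splits. The difference between the fluoxetine effects of HT and WT was called for no gene of the 16919 tested, with 1 proteasome gene and 1291 genes at an unadjusted p under 0.05. The difference between the fluoxetine effects of females and males was also called for none (9 proteasome genes and 2146 genes at an unadjusted p under 0.05).

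Core transcripts were short, and the dependence of the values on transcript length differed between fluoxetine and vehicle libraries. The median transcript length was 1165 bases for the core, 859 for its constitutive beta genes, 1613.5 for the cap and 2643 over all genes tested. The length slope of a library is how steeply the log2 deviation of its genes climbs with the log2 of their transcript lengths, for genes averaging 250 or more other than the proteasome genes, and is positive where long transcripts are relatively high. It was -0.009 to 0.064 in HT fluoxetine libraries, against -0.064 to 0.067 in HT vehicle, with means of 0.031 and -0.022 (permutation test, two-sided, 100000 resamples, p = 9.6e-04, adjusted over 4 tests p = 0.0019). In WT it was 0.026 to 0.086 with fluoxetine, against -0.057 to -0.014 with vehicle, with means of 0.049 and -0.032 (exact permutation test, two-sided, p = 2.2e-05, adjusted p = 8.8e-05). The WT groups did not overlap. For lithium against vehicle the means were 0.002 and -0.022 in HT (permutation p = 0.21, adjusted p = 0.21) and -0.023 and -0.032 in WT (permutation p = 0.14, adjusted p = 0.19).

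Across the 31 subunits without the immune, thymic and testis genes and the assembly chaperones, Spearman's rho between transcript length and the fluoxetine change was 0.5 in HT and 0.61 in WT. Within the 14 core genes of these it was -0.01 and 0.2. These are descriptions across genes, which are not independent. After each library was corrected for a smooth dependence on length and GC content, 6 of 17 core genes fell in each genotype and none of the cap, where 4.36% of all genes fell in HT and 2.59% in WT. The 6 were the same in both: Psma3, Psma5, Psmb1, Psmb3, Psmb4 and Psmb7. The correction and the rho values rest on annotated lengths, such as 1852.5 bases for Psma3, 1758 for Psmb1 and 760.5 for Psmb5. Other definitions of length were not tried. Psmb7 then changed by -0.16 in HT (adjusted p = 2.2e-05) and -0.15 in WT (adjusted p = 1.3e-04), Psmb3 by -0.15 and -0.10, and Psmb1 by -0.09 and -0.15. Psmb5 had -0.08 in HT (adjusted p = 0.16) and -0.09 in WT (adjusted p = 0.15), and Psmb6, on the other side of 0, had 0.02 in HT and 0.00 in WT. The core median was -0.10 in HT and -0.09 in WT, and the cap median 0.01 and -0.02. What sets the slope of a library was not tested.

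**Figure D4:**
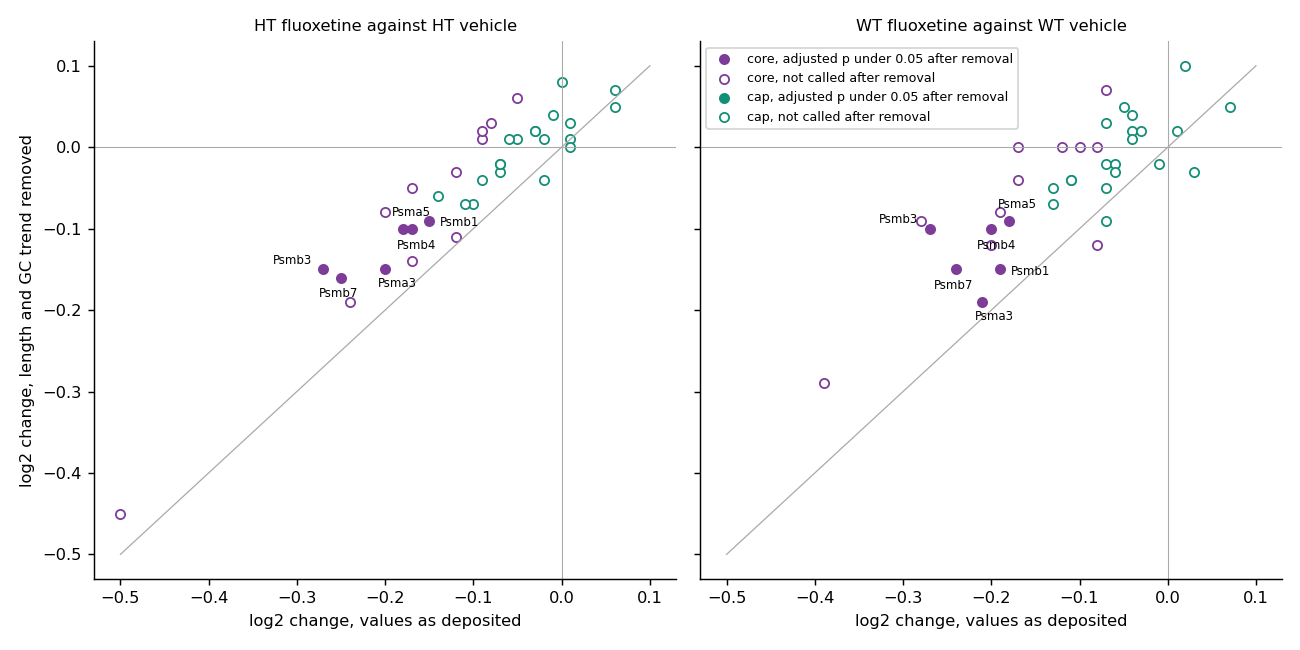
Log2 change with fluoxetine of each tested core and cap gene, as deposited (x axis) and after correction of each library for length and GC content (y axis), in HT (left) and WT (right); the diagonal marks equal values. Filled points, labelled, had an adjusted p under 0.05 after the correction, and are the same 6 core genes in both genotypes.

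Among the 19 fluoxetine libraries the core summary and the length slope had a Pearson r of -0.22 (permutation p = 0.36, adjusted over 6 relations 0.43) and a Spearman rho of -0.20 (p = 0.4, adjusted 0.48), and r was -0.25 without the 2 libraries farthest from the median slope. Among the 20 vehicle libraries r was -0.86 (permutation p = 1.3e-04, adjusted 7.8e-04) and rho -0.73 (p = 5.2e-04, adjusted 0.0031), and r was -0.57 without the 2 farthest, 1 of them HT vehicle female replicate 1. Among the 15 lithium libraries other than HT females r was -0.69 (permutation p = 0.0038, adjusted 0.0076), rho was -0.72 (p = 0.0034, adjusted 0.01), and r was -0.57 without the 2 farthest. For the cap, r was -0.03 in fluoxetine (p = 0.91), -0.41 in these lithium (p = 0.12) and -0.57 in vehicle libraries (permutation p = 0.0035, adjusted 0.0076), with rho of -0.07, -0.52 and -0.57, and r of 0.08, -0.38 and -0.40 without the 2 farthest. The points share each library's normalization, and the proteasome genes were left out when the slope was computed. The HT lithium females, whose split from the males is given below, were left out of the lithium relation, and it was not computed with them. Permutations shuffled libraries across genotypes and sexes, so differences between these groups enter the p-values. These relations were not among the planned tests.

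**Figure D5:**
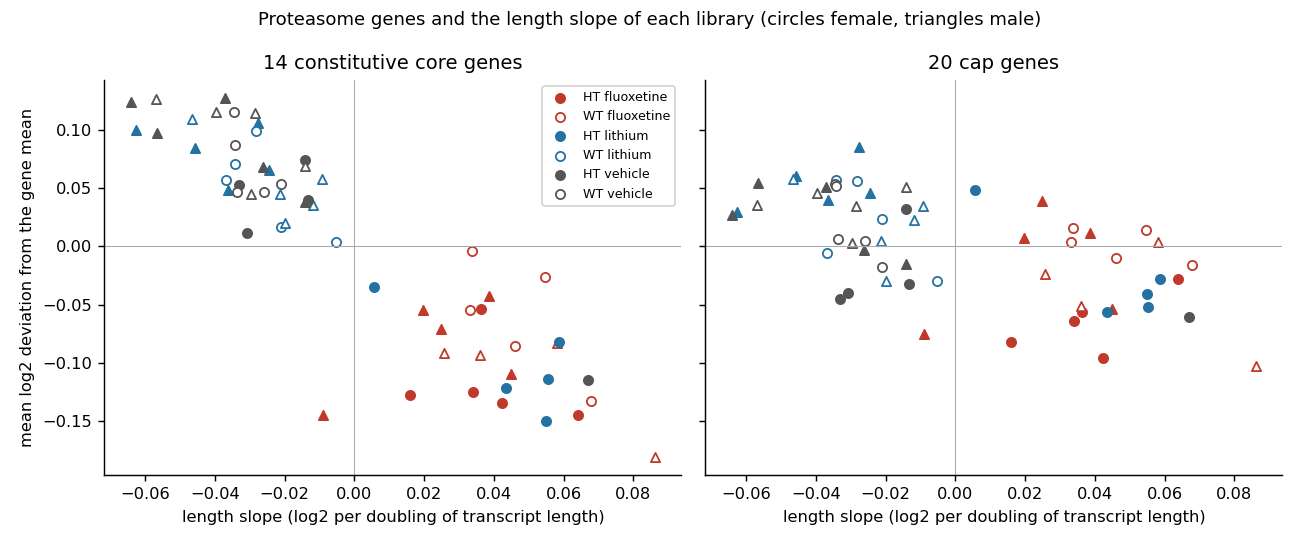
Mean log2 deviation of the 14 constitutive core genes (left) and the 20 cap genes (right) against the length slope of each library; filled points are HT and open points WT. Fluoxetine libraries, the 5 HT lithium females and HT vehicle female replicate 1 lie low and, but for 1 fluoxetine library, to the right of a slope of 0 in the core panel.

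With lithium, few proteasome genes moved. In HT, Psmb3 alone fell (-0.15 ± 0.03, adjusted p = 0.0089), where 2.26% of all genes fell, at 1228 to 1713 in HT lithium (median 1440), against 1360 to 1728 in HT vehicle (median 1604). Without the 4 libraries that spread most, 6 core genes fell in HT with lithium, and without HT vehicle female replicate 1 alone 4. In the refit without the 4 libraries, 2387 of all 16919 genes were called in HT, in either direction. The number of all genes called without that replicate alone is not given here. In WT, Psmb6 alone fell (-0.09 ± 0.03, adjusted p at the threshold of 0.05), where 0.892% of all genes fell. It was at 1880 to 2007 in WT lithium (median 1956), against 1882 to 2210 in WT vehicle (median 2097), and the call was lost in 16 of the 20 fits without 1 WT library. The WT count was also 1 without the 4 libraries, where 635 of all genes were called in either direction. No cap gene was called with lithium, with or without them. Median changes were -0.06 for the core and 0.02 for the cap in HT, and -0.04 and -0.01 in WT.

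The HT lithium libraries split by sex. The core summary was -0.15 to -0.035 in the 5 females, against 0.049 to 0.106 in the 5 males. The length slope split likewise, at 0.006 to 0.059 in females and -0.063 to -0.024 in males. Psmb7 was at 2924, 2755, 2698, 2757 and 2689 in HT lithium females, against 3193, 3431, 3337, 3343 and 3242 in HT lithium males. Psmb3 was at 1390, 1315, 1280, 1228 and 1305 in these females, against 1546, 1688, 1574, 1713 and 1489 in these males. Every female value lay below every male value for both genes, which are given as examples. The share of all genes without overlap in this split was not counted. In HT lithium females 12 of 17 core and 3 of 20 cap genes were lower than in HT lithium males, as were 3.52% of all genes, a comparison chosen after the split was seen. With the length and GC trend removed, 2 core genes and no cap gene were lower, and 0.774% of all genes. No proteasome gene differed between females and males in the other 5 groups, where 0.065% of all genes did in HT fluoxetine, 0.0768% in WT fluoxetine, 0.0532% in WT lithium, 0.106% in HT vehicle and 0.0827% in WT vehicle.

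Against vehicle of the same sex, 3 core genes fell in HT lithium females, with 2.35% of all genes, namely Psmb3 (-0.25, adjusted p = 0.0017), Psma6 (-0.19, adjusted p = 0.0056) and Psmb7 (-0.15, adjusted p = 0.023), and none in HT lithium males, with 0.0177% of all genes. The difference between these effects of lithium in HT females and HT males was called for no gene, and the smallest adjusted p of a core gene was 0.37. The labels give no processing batch, so a batch of the HT lithium females and their group cannot be told apart.

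The drugs also differed from each other. In HT, 10 core and 5 cap genes were lower with fluoxetine than with lithium, where 6.88% of all genes were lower. In WT it was 11 core and 5 cap genes, with 11.2% of all genes. Without the 4 libraries that spread most these were 9 and 5 genes in HT, and 11 and 5 in WT. Of all 16919 genes, 2303 in HT and 3084 in WT were then called in either direction. With the length and GC trend removed, 2 core and 1 cap gene were lower in HT (5.58% of all genes) and 6 core and 2 cap genes in WT (7.41%). In WT, where 16% of all genes were then called in either direction, 4 proteasome genes were higher. They were Psmb2 (0.10, adjusted p = 0.008), Psmb6 (0.09, adjusted p = 0.009), Psmc3 (0.07, adjusted p = 0.028) and Psmd13 (0.10, adjusted p at the threshold of 0.05). These comparisons use the fluoxetine libraries already compared with vehicle. In HT females the core summary overlapped between the drugs, at -0.145 to -0.054 with fluoxetine and -0.15 to -0.035 with lithium. In HT males it did not, at -0.145 to -0.043 and 0.049 to 0.106. The HT counts average over both sexes, and the drugs were not tested against each other within a sex. Psmb7 changed by -0.16 ± 0.03 in HT (adjusted p = 8.6e-05) and by -0.20 ± 0.03 in WT (adjusted p = 2.1e-06). Psmb10 was lower in both, by -0.23 in HT and by -0.35 in WT. Its WT levels were 406 to 598 with fluoxetine and 516 to 691 with lithium. Its HT call was lost in 5 of the 20 fits that leave out 1 library of these groups. Those of Psma3, Psma4 and Psma5 in HT were lost in 8, 9 and 2 of them. Of the 5 cap calls in HT, Psmc2 was lost in 13, Psmc4 in 14, Psmd8 in 8, Psmd12 in 13 and Psmd7 in 0.

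Between the Ank2 genotypes no proteasome gene passed the test under any drug with all libraries in the fit. No proteasome gene was called in HT vehicle against WT vehicle, where 0.00591% of all genes were called. At an unadjusted p under 0.05 in limma stood 578 genes, 2 of them proteasome genes. These were Psmb6 (-0.06 ± 0.03) and Psmb1 (-0.05 ± 0.02). The core median was -0.04 and the cap median -0.02, and Psmb7 had -0.04 with a 95% confidence interval of -0.10 to 0.02. None was called in HT fluoxetine against WT fluoxetine (0.0118% of all genes; 3 proteasome and 2659 genes by the unadjusted p). None was called in HT lithium against WT lithium (0.55% of all genes; 12 proteasome and 2759 genes by the unadjusted p), where all 17 core changes were below 0, with a median of -0.07 for the core and -0.01 for the cap. In that comparison 2 core genes were called without the 4 libraries that spread most, and 2 core and 1 cap gene with libraries scaled to the same sum. The shares of all genes called in these refits are not given here, so nothing is read from the counts. It averages over sexes that differed. In lithium females the core summary was -0.15 to -0.035 in HT and 0.004 to 0.099 in WT. In lithium males it was 0.049 to 0.106 in HT (median 0.085) and 0.02 to 0.11 in WT (median 0.045). The difference between the lithium effects of HT and WT was called for no gene (1 proteasome gene and 1139 genes by the unadjusted p).

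Lists of genes around the proteasome were counted for fluoxetine in the same way, beside the 7.38% of all genes that fell and 6.63% that rose in HT, and 7.78% and 7% in WT. In lists this short 1 called gene is near those shares, and nothing is read from such a count. Counts and changes of the lists are of values as deposited, except where the length and GC trend is said to be removed. Of 8 assembly and maturation factors, which include Psmd5, Psmd9 and Psmd10, 3 fell in HT and 4 in WT, and none rose. Pomp, the maturation factor of the core, changed by -0.23 ± 0.06 in HT (adjusted p = 0.0027) and by -0.19 ± 0.06 in WT (adjusted p = 0.02), and Psmg2, a chaperone of the alpha ring, by -0.16 ± 0.05 (adjusted p = 0.019) and -0.18 ± 0.05 (adjusted p = 0.0093). With the length and GC trend removed, Pomp in HT was the 1 of them called. Of 14 activators, inhibitors and other binders, 2 fell and 1 rose in HT, and 1 fell and 3 rose in WT. The interferon-induced activator subunit Psme1 fell in both (-0.14 ± 0.04, adjusted p = 0.0055, and -0.16 ± 0.04, adjusted p = 0.0026) and Psme2 in HT (-0.42 ± 0.09, adjusted p = 5.3e-04), while the ubiquitin ligase Ube3c rose in both (0.10 ± 0.03 and 0.16 ± 0.03).

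Of 12 shuttle and unfolding factors, 2 rose and none fell in HT, and 4 rose and 1 fell in WT. Ubqln1, which carries tagged proteins to the proteasome, rose by 0.12 ± 0.03 (adjusted p = 0.0054) and 0.13 ± 0.03 (adjusted p = 0.0028). Of 12 regulators of proteasome genes none was called in HT and 3 rose in WT, among them Nfe2l1 (0.13 ± 0.04, adjusted p = 0.034) and Ddi2, the protease that activates NFE2L1 and is also counted among the shuttle factors (0.19 ± 0.04, adjusted p = 4.8e-04). With the length and GC trend removed, neither was called (adjusted p = 0.13 and 0.098). Among the ubiquitin and E1 genes, Rps27a, which codes for ubiquitin fused to a ribosomal protein, fell in both genotypes (-0.34 ± 0.04 in each), and the E1 enzyme Uba1 rose in both (0.13 ± 0.03 and 0.12 ± 0.03).

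The COP9 signalosome resembles the lid of the cap. Of its 10 genes, 3 fell in HT and 5 in WT, with Cops9 at -0.49 ± 0.05 (adjusted p = 9.9e-10) and -0.45 ± 0.05 (adjusted p = 1.5e-08). These counts and changes, and those of the lists that follow, are of values as deposited, without the length and GC correction. Of 21 genes of MHC class I and the interferon response, which often move with the immunoproteasome, 8 fell in HT and 4 in WT, and none rose. H2-D1, a class I heavy chain, changed by -0.24 ± 0.05 (adjusted p = 3.9e-04) and -0.18 ± 0.05 (adjusted p = 0.01). Of 12 microglia markers, 1 fell (Aif1) and 1 rose (Csf1r) in each genotype, and their summed level was 13867 to 18390 in HT fluoxetine and 13313 to 16743 in HT vehicle libraries, and 13742 to 15246 in WT fluoxetine and 12663 to 16003 in WT vehicle. Of 5 blood markers, 4 fell in HT and 3 in WT, with summed levels of 4215 to 9942 in HT fluoxetine and 8105 to 14633 in HT vehicle, and 5018 to 9015 in WT fluoxetine and 6856 to 11690 in WT vehicle. Of 6 endothelial markers, Cldn5 fell in both genotypes and Flt1 rose in WT, and of 7 neuron markers Rbfox3 rose in HT. No astrocyte, oligodendrocyte or choroid plexus marker (5 each) was called. No marker was at 0 in every library. The part of these cells in the proteasome values was not tested.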

How the data were processed

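RNA of prefrontal cortex was sequenced as 59 libraries made with a stranded mRNA kit, per the labels' protocols. The deposited table holds signal, here the authors' estimated counts per Ensembl gene after normalization. The build was GRCm38, and DESeq2 1.19.11, Salmon 0.11.2 and R 3.6.0 are named, per the submitters' processing notes. Their settings are not given in the sources used here. Reads could not be recovered: 28.3% to 66.8% of low values per library were whole multiples of the smallest step, within 0.1 steps, so no count model was run, which departs from the branch planned for raw counts. Of 51456 identifiers, 51285 matched GENCODE models of GRCm38. Transcript length is the median over a gene's basic transcripts.

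Values were analysed as log2(value + 1) for 16919 genes with a mean of at least 10; this scale understates fold changes of low genes. The robust limma-trend fit (limma 3.58.1, R 4.3.3) had 12 group means, 47 residual degrees of freedom and 13 comparisons averaged over sexes or genotypes. Tests were two-sided, with Benjamini-Hochberg adjustment over all genes and a threshold of 0.05. The script was tested on simulated data. The length and GC trend was a spline with 4 degrees of freedom for each, fitted per library on genes with a mean of at least 250. Python 3.11.15 with SciPy 1.17.1, pandas 2.3.3, NumPy 2.4.6 and matplotlib 3.10.9 gave permutation tests, motif searches and plots.

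Any core or cap gene could be named. Called genes have full statistics, up to 6 with the smallest p per direction and comparison, as have the catalytic pairs. Of other lists, up to 4 genes with the smallest p were named. Members and lists were chosen with earlier results of these data known. The result of 1 gene of the ubiquitin and E1 list is not reported here. Alternatives were other pseudocounts, filters, scalings, fits and left-out libraries.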

Additional observations from a re-analysis of the deposited data

Results flagged for a closer look

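A library was set apart where its gap to the nearest library of its genotype and drug group, divided by the range of the group, passed Dixon's 95% value. This happened in 16 of 228 groups of values, where chance gives about 5%. Of these, 5 were low values of HT vehicle female replicate 1: Psmb2 at 1190 (nearest 1300), Psmb3 at 1360 (nearest 1550), Psmb5 at 1680 (nearest 1920), Psmb6 at 1790 (nearest 1950) and Psmd9 at 526 (nearest 642). That library had a length slope of 0.0671, and the other HT vehicle libraries had -0.0642 to -0.0132. In WT fluoxetine male replicate 1, which had the highest spread of the WT libraries, Psmc5 was at 2760 (nearest 3290), Psmd2 at 5520 (nearest 6300) and Psmd7 at 2270 (nearest 2420), all low. In WT fluoxetine female replicate 2, Psma2 at 2980 (nearest 2430) and Psmc3 at 4140 (nearest 3790) were high.

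The others were single values. Psma1 was low at 1860 in WT vehicle male replicate 2 (nearest 2030), and Psmb6 at 1880 in WT vehicle male replicate 5 (nearest 2060). Psmb8 was high at 89.7 in HT vehicle male replicate 4 (nearest 65.9). Psmc6 was low at 2240 in WT lithium female replicate 2 (nearest 2410) and at 2200 in HT vehicle female replicate 4 (nearest 2370). Psmd4 was low at 2000 in HT lithium female replicate 2 (nearest 2170).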

How the results depend on the processing

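Counts of called core and cap genes, both directions together, moved by over 1.5 times as follows. The removal of the length and GC trend left 6 core and 0 cap genes with fluoxetine in HT, 6 and 0 in WT, 0 core genes with lithium in HT, and 2 core and 1 cap gene for fluoxetine against lithium in HT. For fluoxetine against lithium in WT the genes called lower came to 6 core and 2 cap genes, with 2 core and 2 cap genes higher. Of all genes 16% were called there in either direction. With the replicate block added to it the first 4 comparisons gave 7 and 0, 5 and 1, 0, and 2 and 1. Libraries scaled to the same sum gave 9 cap genes with fluoxetine in HT and 8 in WT. They gave 4 core genes with lithium in HT and 0 in WT, and 8 cap genes for fluoxetine against lithium in HT. For HT lithium against WT lithium they gave 2 core and 1 cap gene. With this scaling the median log2 change over all genes was -0.04 and -0.03 with fluoxetine in HT and WT, and -0.03 with lithium in HT. Of all 16919 genes, 2568, 2675 and 906 were then called in these comparisons, in either direction. No filter on low values, and likewise a fit of only the groups compared, gave 1 cap gene with fluoxetine in HT, 0 core genes with lithium in WT, and 6 core and 1 cap gene for fluoxetine against lithium in HT. Groups without sex gave 0 core genes with lithium in both genotypes, and 4 core and 1 cap gene for fluoxetine against lithium in HT. Scaling by median of ratios gave 2 core genes with lithium in HT and 2 cap genes for fluoxetine against lithium in HT. A pseudocount of 10 gave 0 core genes with lithium in WT. The 4 libraries that spread most were chosen after the data were seen. Without them 6 core genes were called with lithium in HT, where 2387 of 16919 genes were, and 2 for HT lithium against WT lithium. The cause was not tested.

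Among genes called in a comparison, directions turned only with the length and GC trend removed, without and with the block: Psmb6 with fluoxetine had 0.02 and 0.02 in HT (adjusted p = 0.64 and 0.65) and 0.00 and 0.00 in WT (adjusted p = 0.95 and 0.96), and for fluoxetine against lithium in WT Psma6 had 0.01 and 0.02 (adjusted p = 0.8 and 0.75) and Psmb6 0.09 and 0.09 (adjusted p = 0.009 and 0.012). Of the 37 core and cap genes, 9 that were not called turned with fluoxetine in HT and 8 in WT, among them Psmb2 (0.06 in HT, 0.07 in WT) and, in HT, Psma1 (0.03) and Psma4 (0.01), and 4 in HT and 5 in WT for fluoxetine against lithium.

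Leaving out 1 library gave 12 to 13 core and 2 to 5 cap genes with fluoxetine in HT, 10 to 12 and 3 to 5 in WT, 1 to 4 core genes with lithium in HT and 0 to 1 in WT. For fluoxetine against lithium it gave 7 to 11 core and 1 to 6 cap genes in HT, and 10 to 12 and 5 to 6 in WT. The replicate block alone gave 12 core and 4 cap genes with fluoxetine in HT and 11 and 4 in WT. Same-numbered libraries of different groups had a median correlation of deviations of -0.00321, against 0.00157 for other numbers. Single pairs ran from -0.532 to 0.704 and from -0.665 to 0.664. A median over all pairs cannot show whether some libraries were paired. The effect of depth on single genes was not tested.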
